A study of Mus musculus with 384 samples.

Results

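Early neural genes were examined in single cells of formative stem (FS) cell lines and primed epiblast stem cell (EpiSC) lines of the mouse. The 10 genes, *Sox1*, *Pax6*, *Pax3*, *Sox3*, *Nes*, *Zic1*, *Six3*, *Hesx1*, *Sox11* and *Ncam1*, were chosen by name and each had 1 row among the 31617 genes of the count table. Each gene was described by its level in counts per 1000000 counts of the cell (CPM) and by the number of cells with at least 5 CPM and at least 50 CPM, in the 326 of 384 cells that had at least 3000000 counts. These were 90 cells of 5ar1, 90 of 5ar2, 66 of AFX6 and 80 of AF32, hence 180 FS cells and 146 EpiSCs, with 3022666 to 6686007 counts per cell. Median detected genes were 11371, 11567, 10328 and 10330 in the same order.

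All lines were grown in N2B27 on fibronectin. The FS lines 5ar1 and 5ar2 were kept in AloXR (A3XR in the labels), which holds a low concentration of activin, the tankyrase inhibitor XAV939 and BMS493, an inverse agonist of retinoic acid receptors. The EpiSC line AFX6 was kept in AFX, with activin, Fgf2 and XAV939, and AF32 in AF, with activin and Fgf2 but no XAV939. BMS493 was present for both FS lines and for neither EpiSC line. Each EpiSC medium is represented by a single line, so that line and medium cannot be told apart. Cells of a line share a culture and are not replicates, and tests between FS cells and EpiSCs used the lines, 2 against 2.

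When pluripotent epiblast adopts a neural fate, it activates a SoxB1 programme in which Sox1 is the factor most restricted to neuroectoderm, while Sox2 and Sox3 are already present in epiblast. Six3 and Hesx1 are homeodomain factors of the anterior neural plate and forebrain, Hesx1 acting as a repressor. Pax6 marks neural progenitors of forebrain, eye and ventral spinal cord, whereas Pax3 and Zic1 mark dorsal neural tube and its border. Nestin, Sox11 and Ncam1 are widely used as neural genes but are also expressed outside the nervous system.

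RefSeq promoters (GRCm38.p6, 250 bases before to 50 after a start site) are shown for *Hesx1* at chr14:27000112-27000411, *Six3* at chr17:85620584-85620883 and *Sox1* at chr8:12395269-12395568, all on the + strand, because these were the members found together in the same cells. Capitals mark ATTA, the core of homeodomain binding sites, on either strand (ATTA or TAAT, which may overlap).
Hesx1: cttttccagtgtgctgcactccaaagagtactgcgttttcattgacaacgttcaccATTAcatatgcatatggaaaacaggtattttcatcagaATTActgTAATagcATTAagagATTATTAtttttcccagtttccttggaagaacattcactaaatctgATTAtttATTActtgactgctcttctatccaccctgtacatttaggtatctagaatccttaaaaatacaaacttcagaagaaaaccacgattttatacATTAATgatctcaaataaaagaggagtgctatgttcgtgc
Six3: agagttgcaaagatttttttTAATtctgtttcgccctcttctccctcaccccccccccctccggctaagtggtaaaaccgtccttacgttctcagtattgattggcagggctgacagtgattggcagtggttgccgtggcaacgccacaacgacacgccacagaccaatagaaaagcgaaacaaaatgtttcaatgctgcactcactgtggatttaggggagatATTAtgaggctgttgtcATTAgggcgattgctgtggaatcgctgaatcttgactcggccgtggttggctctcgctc
Sox1: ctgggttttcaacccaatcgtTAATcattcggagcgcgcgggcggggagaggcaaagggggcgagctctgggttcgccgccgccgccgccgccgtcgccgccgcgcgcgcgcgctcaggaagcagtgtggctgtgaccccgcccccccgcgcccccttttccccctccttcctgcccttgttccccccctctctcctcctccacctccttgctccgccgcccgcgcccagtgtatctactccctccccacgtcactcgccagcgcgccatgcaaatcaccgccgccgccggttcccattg
There were 10 ATTA matches in the *Hesx1* window, 3 in *Six3* and 1 in *Sox1*, and 58.0% of 32851 promoters held at least 1. The windows differed in base composition, with a GC content of 33.7%, 50.0% and 70.7%, against a median of 52.7% over all promoters. A TATAAA match was found in the *Hesx1* window alone of the 3 (13.6% of promoters held one), and an octamer ATTTGCAT in the *Sox1* window alone (1.735% of promoters). Both matches read on the strand opposite to the one printed and lie in the 50 bases after the start site. ACAAT, the core bound by Sox factors, had no match in these 3 windows, against 31.0% of promoters. All 3 windows overlap the annotated genes. That of *Sox1* reaches across the annotated start at position 12395295, and those of *Hesx1* and *Six3* lie wholly inside, since GENCODE places *Hesx1* at chr14:26994416-27002329 and *Six3* at chr17:85613608-85629302, both with further upstream exons.

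The members fell into a frequent and a rare class. *Nes*, *Sox11* and *Ncam1* had at least 5 CPM in 275, 237 and 207 of 326 cells, whereas *Hesx1* reached this level in 45 cells, *Sox1* in 43, *Sox3* in 37, *Pax6* in 18, *Six3* in 13, and *Pax3* and *Zic1* in 1 each. At least 50 CPM was rarer still for the transcription factors of regional or neural identity. *Hesx1* had 19 such cells, *Sox1* 3, *Pax6* 2, *Sox3* and *Pax3* 1 each, and *Six3* and *Zic1* none.

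**Figure D1:**
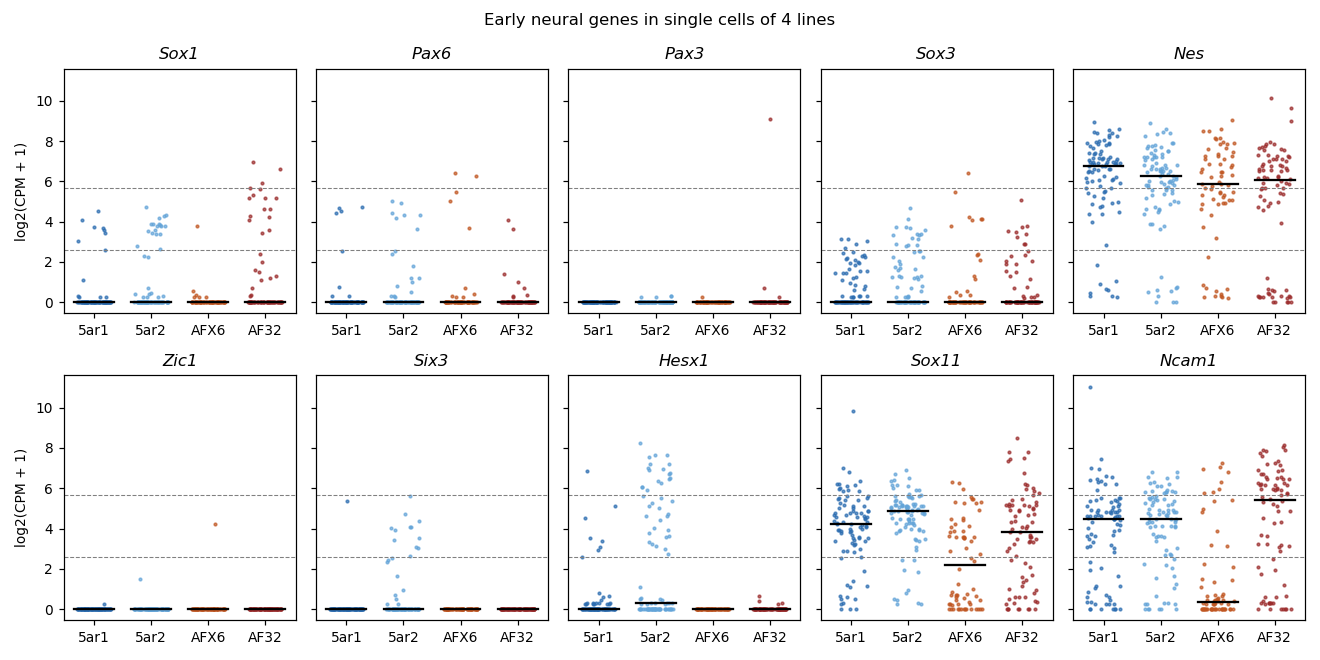
Levels of the 10 members as log2(CPM + 1) in each kept cell of the 4 lines, with black bars at the line medians and dashed lines at 5 and 50 CPM. *Nes*, *Sox11* and *Ncam1* spread over most cells, whereas the other 7 members have a line median at or close to 0, with a minority of cells above 5 CPM.

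*Hesx1* (chromosome 14) differed widely between the FS lines. Its level over the summed counts of a line was 2.6 CPM in 5ar1 and 29.8 CPM in 5ar2, compared with 0 in AFX6 and 0.0140 CPM, or 5 counts, in AF32. Both FS lines were above both EpiSC lines, and 5ar2 exceeded 5ar1 by 11.4-fold (95% interval 10.7 to 12.1, for counting error only). In 5ar2, 38 of 90 cells (42.2%, 31.9% to 53.1%) had at least 5 CPM and 18 had at least 50 CPM, up to 306 CPM. In 5ar1, 7 cells passed 5 CPM and a single cell, with 115 CPM, held 58.4% of the counts of *Hesx1*, without which the level of the line was 1.1 CPM. None of the 146 EpiSCs had 5 CPM. By the exact 95% limit this allows a share of up to 5.44% in AFX6 and 4.51% in AF32.

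*Six3* (chromosome 17) had the same order of lines. Its level was 2.3 CPM in 5ar2, where 12 cells (13.3%, 7.08% to 22.1%) had at least 5 CPM and the highest had 48.1 CPM, and 0.306 CPM in 5ar1. The 132 counts of 5ar1 came from cell 26 alone. No count of *Six3* was found in any AFX6 or AF32 cell. Over the summed counts, FS cells had 1125 counts of *Six3* and EpiSCs 0. The exact conditional 95% limit of this fold was 242, for counting error only and without the spread between cells or lines. Against a floor of 3 counts over the group the fold was 298.

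*Sox1*, an intronless gene at chr8:12395295-12400126, was most abundant in AF32. The level was 8.36 CPM in AF32, 2.7 CPM in 5ar2, 1.1 CPM in 5ar1 and 0.259 CPM in AFX6, so that the EpiSC lines lay on both sides of the FS lines. AF32 exceeded AFX6 by 32-fold (26.1 to 40.6). The share of cells with at least 5 CPM was the same in AF32 (16 of 80, 20.0%, 11.9% to 30.4%) and in 5ar2 (18 of 90, 20.0%, 12.3% to 29.8%), but the positive cells differed in level. The highest 5ar2 cell had 25.4 CPM, whereas cells 92, 62 and 85 of AF32 had 122, 98.5 and 60.1 CPM. In 5ar1, 8 cells passed 5 CPM, and in AFX6 a single cell with 12.8 CPM held 93.0% of the counts.

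*Pax6* (chr2:105668900-105697364) showed the opposite order in EpiSCs. Its level was 4.13 CPM in AFX6, 1.8 CPM in 5ar2, 1.1 CPM in 5ar1 and 0.436 CPM in AF32. The difference between AFX6 and AF32, 9.48-fold (8.02 to 11.3), was carried by 5 AFX6 cells, with 84.5, 76.9, 44.1, 32.0 and 11.8 CPM. Without cell 8, the highest of them, the AFX6 level was 2.7 CPM. In 5ar1 and 5ar2, 4 and 7 cells had at least 5 CPM, up to 25.4 and 31.6 CPM, and in AF32 2 cells did. The shares themselves, 7.58% in AFX6 (2.5% to 16.8%) and 7.78% in 5ar2 (3.18% to 15.4%), had overlapping intervals.

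*Pax3* and *Zic1* were each confined, at 5 CPM, to 1 cell. *Pax3* had 547 CPM in AF32 cell 65, which held 99.9% of the counts of AF32, and without this cell the line fell from 7.90 to 0.00856 CPM. Elsewhere the gene had 0 counts in 5ar1, 4 in 5ar2 and 1 in AFX6. *Zic1* had 17.8 CPM in AFX6 cell 20, with 94 counts there, 9 counts in 5ar2, 1 in 5ar1 and 0 in AF32.

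*Sox3*, the X-linked SoxB1 gene, was low in every line, with 1.04 CPM in 5ar1, 2.3 CPM in 5ar2, 2.7 CPM in AFX6 and 1.8 CPM in AF32. At least 5 CPM was found in 5, 16, 7 and 9 cells. A count of *Sox3* was nevertheless present in 38 of 90 and 43 of 90 FS cells, compared with 17 of 66 and 27 of 80 EpiSCs, so that low levels were spread more widely than those of *Six3* or *Pax6*. The highest level, 84.0 CPM, was in AFX6 cell 22, which held 28.3% of the counts of the line.

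*Nes*, which encodes the intermediate filament nestin, had nearly equal levels in all lines. They were 123 CPM in 5ar1, 103 CPM in 5ar2, 101 CPM in AFX6 and 97.4 CPM in AF32, and AFX6 and AF32 differed by 1.04-fold. The share of cells with at least 5 CPM was 90.0%, 88.9%, 83.3% and 73.8%. Among cells of a line the level varied widely, with quartiles of 1.1 and 131 CPM in AF32 and of 44.2 and 161 CPM in 5ar1.

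*Sox11*, a SoxC factor of differentiating neurons, and *Ncam1*, a neural cell adhesion molecule, were both lowest in AFX6. *Sox11* had 32 CPM in 5ar1, 30.1 CPM in 5ar2, 12.0 CPM in AFX6 and 33.6 CPM in AF32, with at least 5 CPM in 74, 79, 31 and 53 cells. *Ncam1* had 43.6 CPM in 5ar1, 28.8 CPM in 5ar2, 15.9 CPM in AFX6 and 62.5 CPM in AF32, with at least 5 CPM in 65, 70, 15 and 57 cells. AF32 exceeded AFX6 by 2.788-fold for *Sox11* (2.7 to 2.9) and by 3.93-fold for *Ncam1* (3.81 to 4.05). The difference in *Ncam1* was also visible in the median cell, with 0.261 CPM in AFX6 and 41.4 CPM in AF32. In 5ar1, cell 26 held 36.5% of the counts of *Ncam1*, and without it the level was 27.9 CPM.

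**Figure D2:**
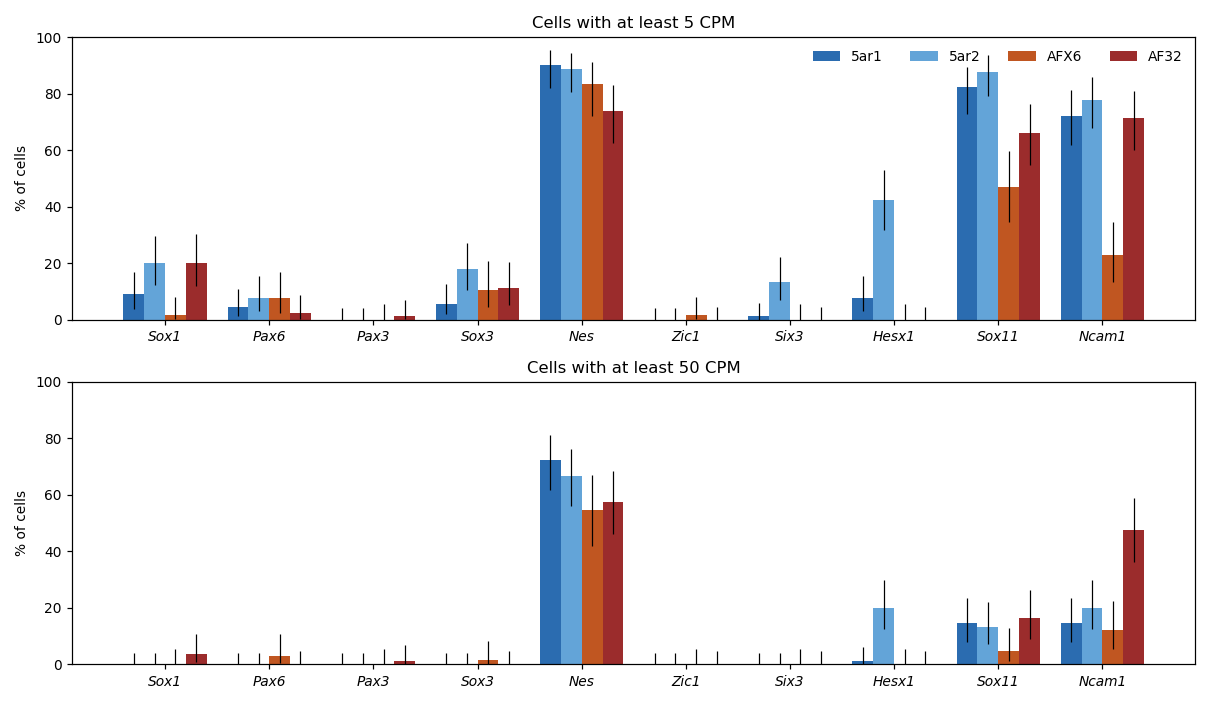
Percent of the kept cells of each line with at least 5 CPM (top) and at least 50 CPM (bottom) of each member, with exact 95% intervals. Hesx1 reaches 42.2% at 5 CPM and 20.0% at 50 CPM in 5ar2 and 0 in both EpiSC lines, while Ncam1 at 50 CPM is most frequent in AF32 (47.5%).

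Levels of different genes were compared per kilobase of exon. In 5ar2 *Hesx1* had 23.9 CPM per kilobase, above *Nes* with 16.0, *Sox11* with 3.62, *Ncam1* with 3.33, *Sox3* with 1.1, *Sox1* with 0.559, *Six3* with 0.419 and *Pax6* with 0.150. In AF32 the order was *Nes* with 15.2 CPM per kilobase, *Ncam1* with 7.21, *Sox11* with 4.04, *Sox1* with 1.7, *Pax3* with 1.277 (from 1 cell, described above) and *Sox3* with 0.858. *Hesx1* has the fewest exonic bases of these genes, 1248. Exonic bases were merged over all annotated transcripts of a gene and can exceed the length of a single message. Values per kilobase can therefore be too low for genes with alternative exons.

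Between FS cells and EpiSCs, no member passed edgeR's quasi-likelihood test on the summed counts of the lines at a Benjamini-Hochberg adjusted p of 0.05 and an absolute log2 fold change of 1.4. Over all genes 0% of 22606 passed (0 genes, with 3636 at an unadjusted p under 0.05, and 3 passed limma). *Hesx1* was 16.2 ± 19.2 CPM in FS lines and 0.00703 ± 0.00994 CPM in EpiSC lines (SD, n = 2 lines each), with a log2 fold change (EpiSC minus FS) of -11.09 ± 2.223 (SE) and an adjusted p of 0.190 in edgeR. *Six3* was 1.3 ± 1.4 CPM in FS lines and 0 in EpiSC lines, with an adjusted p of 0.190 in edgeR. The other 6 members that passed the filter on low counts had adjusted p of at least 0.757 in edgeR, namely *Sox1*, *Pax6*, *Sox3*, *Nes*, *Sox11* and *Ncam1*. *Pax3* and *Zic1* did not pass that filter.

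The DESeq2 Wald test called 8.12% of 22277 genes and 3 of the 10 members. It called *Hesx1* and *Six3* lower in EpiSCs (log2 fold changes -11.13 and -11.21, DESeq2 adjusted p 8.41e-12 and 2.7e-05), and *Pax3* higher (9.77, DESeq2 adjusted p 0.00254), the last from AF32 cell 65. Counted without a test, *Nes*, *Six3* and *Hesx1* were higher in both FS lines than in either EpiSC line, 3 of 10 members, as were 23.3% of 30577 genes with a count. No member was higher in both EpiSC lines, as were 17.6% of genes. With 2 lines against 2, an exact permutation test of a single gene cannot go below p = 0.333. For *Sox1* and *Pax6* 1 line decided the direction. Without AF32 the log2 fold change of *Sox1* went from 1.149 to -2.86, and without AFX6 that of *Pax6* went from 0.70 to -1.73.

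In 5ar2, *Hesx1*, *Six3* and *Sox1* were found in the same cells. All 12 cells with at least 5 CPM of *Six3* also had at least 5 CPM of *Hesx1*, where the product of both shares gives 5.07 cells. Of 18 *Sox1* cells, 16 had *Hesx1* (product of shares 7.60 cells) and 8 had *Six3* (2.4 cells). All 3 genes were present in 8 cells and at least 1 of them in 40. Spearman's rho over the 90 cells, which share a culture, was 0.61 for *Six3* with *Hesx1*, 0.60 for *Sox1* with *Hesx1* and 0.48 for *Sox1* with *Six3*. Detected genes were similar with and without *Hesx1* (medians 11614 and 11494).

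*Pax6* and *Sox3* did not share this pattern. Of the 7 *Pax6* cells of 5ar2, 4 had *Hesx1* (2.956 from the product of shares), 2 had *Sox1* (1.4) and none had *Six3*. Of the 16 *Sox3* cells, 6 had *Hesx1* (6.756), 3 had *Sox1* (3.20) and 2 had *Six3* (2.133), all close to the product of shares.

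In the other lines few cells held several of these factors, a difference that was not tested. In 5ar1 none of the 8 *Sox1* cells had 5 CPM of *Hesx1* (product of shares 0.622). In AF32 none of the 16 *Sox1* cells had *Pax6* (0.400), *Six3* or *Hesx1*, and 2 had *Sox3* (1.8). In AFX6 no cell had at least 5 CPM of 2 of the 7 factors other than *Nes*, *Sox11* and *Ncam1*. By this count 52 of 90 cells of 5ar2 (57.8%) had at least 1 of the 7 factors, 26 had at least 2 and 11 had at least 3. In 5ar1 23 cells had at least 1 and 2 had at least 2, in AF32 26 and 2, and in AFX6 14 and 0.

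**Figure D3:**
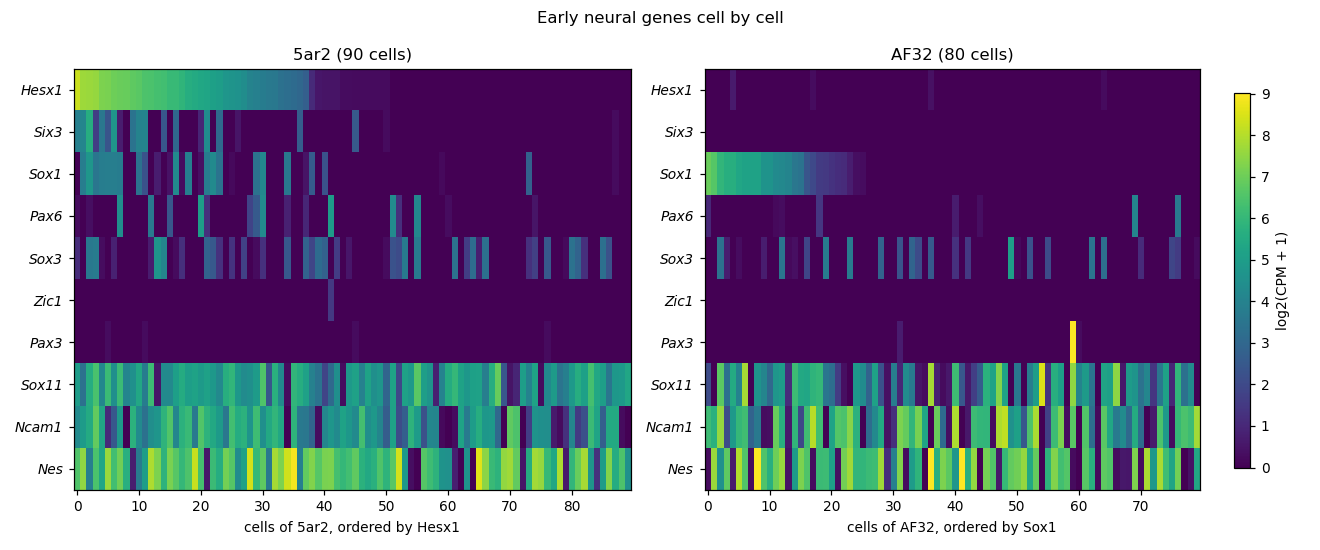
Levels of the 10 members as log2(CPM + 1) (colour, with values above 9 drawn as 9) in each kept cell of 5ar2, ordered by Hesx1, and of AF32, ordered by Sox1. In 5ar2 the Six3 and Sox1 cells lie toward the Hesx1-high end, and in AF32 none of the 16 Sox1 cells has 5 CPM of Six3 or Hesx1.

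Most cells with these factors had transcripts of *Pou5f1*, the gene for the pluripotency factor Oct4. In 5ar2 the median of *Pou5f1* was 348 CPM in *Six3* cells and 519 CPM in the others, 430 and 528 CPM for *Hesx1*, and 394 and 528 CPM for *Sox1*. *Utf1*, another gene of pluripotent cells, had medians of 400 CPM in *Six3* cells and 727 CPM in the other cells of 5ar2, and of 88.7 and 241 CPM in AF32 cells with and without *Sox1*. *Nanog* had the other order. In 5ar2 its medians with and without were 39.7 and 26.4 CPM for *Six3*, 33.5 and 24.0 CPM for *Hesx1*, and 38.5 and 23.3 CPM for *Sox1*. In AF32 they were 447 and 369 CPM for *Sox1*. *Pou5f1* had medians of 448 and 532 CPM in AF32 cells with and without *Sox1*. Pluripotency genes thus did not share a direction. *Pou5f1* and *Utf1* were lower and *Nanog* was higher in *Six3*, *Hesx1* and *Sox1* cells of 5ar2 and in *Sox1* cells of AF32. The 5 AFX6 cells with *Pax6* had a median of 773 CPM of *Pou5f1*, against 490 CPM without. Under 50 CPM of *Pou5f1* was found in 2 cells of 5ar1, 1 of 5ar2, 1 of AFX6 and 3 of AF32, of which 1 had 5 CPM of *Six3* and 1 of *Sox3*, and none had 5 CPM of *Sox1*, *Pax6*, *Pax3*, *Zic1* or *Hesx1*. The *Sox3* cell, AFX6 cell 22, was the highest for *Sox3* and had 1.985 CPM of *Pou5f1*, and the *Six3* cell was 5ar1 cell 26.

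A pair of cells stood apart. Cell 26 of 5ar1 had 2119 CPM of *Ncam1*, 905 CPM of *Sox11* and 40.9 CPM of *Six3*, together with 10110 CPM of *Tubb3*, 783 CPM of *Dcx* and 430 CPM of *Elavl4*, genes of young neurons. It had 3.41 CPM of *Pou5f1* and 0.310 CPM of *Nanog*. Cell 65 of AF32, with *Pax3*, had 1903 CPM of *Tubb3*, 213 CPM of *Dcx* and 722 CPM of *Fabp7*, a gene of neural progenitors and radial glia, yet retained 144 CPM of *Pou5f1*. It had at least 5 CPM of 8 of the 13 neuronal genes examined, against a median of 2 per cell in AF32. With both cells left out, *Six3* no longer passed the filter on low counts and was not tested, and *Hesx1* had an edgeR adjusted p of 0.186.

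*Sox1* in AF32 was most frequent in the cells with the highest expression of its own chromosome, but it did not rise steadily with that expression. The ratio of chromosome 8 expression to that of the median autosome, computed without the members and *Irx3*, was above 1.2 in 41 of 80 AF32 cells and in no kept cell of the other lines. At least 5 CPM of *Sox1* was found in 13 of these 41 cells (31.7%, 18.1% to 48.1%) and in 3 of the other 39 (7.69%, 1.615% to 20.9%), with 13.9 and 2.567 CPM over summed counts. The ratios lay in 3 separate ranges, a division made after their distribution was seen. They were under 1.1 in 37 cells, between 1.1 and 1.4 in 16 and above 1.4 in 27, with medians of 0.911, 1.269 and 1.585. *Sox1* had at least 5 CPM in 3 of the 37 cells (8.11%, 1.704% to 21.9%), 0 of the 16 (up to 20.6%) and 13 of the 27 (48.1%, 28.7% to 68.0%), and the 16 middle cells held no count of it at all.

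*Irx3*, a homeobox gene of the neural plate that also lies on chromosome 8, had 4, 1 and 10 cells with at least 5 CPM in the 3 ranges. *Nes*, *Sox11* and *Ncam1*, on other chromosomes, had at least 5 CPM in 83.8%, 67.6% and 81.1% of cells of the lowest range, 68.8%, 50.0% and 56.2% of the middle range and 63.0%, 74.1% and 66.7% of the highest. *Pou5f1* had medians of 632, 527 and 349 CPM from the lowest to the highest range, and median detected genes were 10332, 10416 and 10310. The part of chromosome 8 copy number in the level of *Sox1* was not tested. For *Pax6*, chromosome 2 was raised in 29 AF32 cells, of which 1 had 5 CPM, as did 1 of the other 51.

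**Figure D4:**
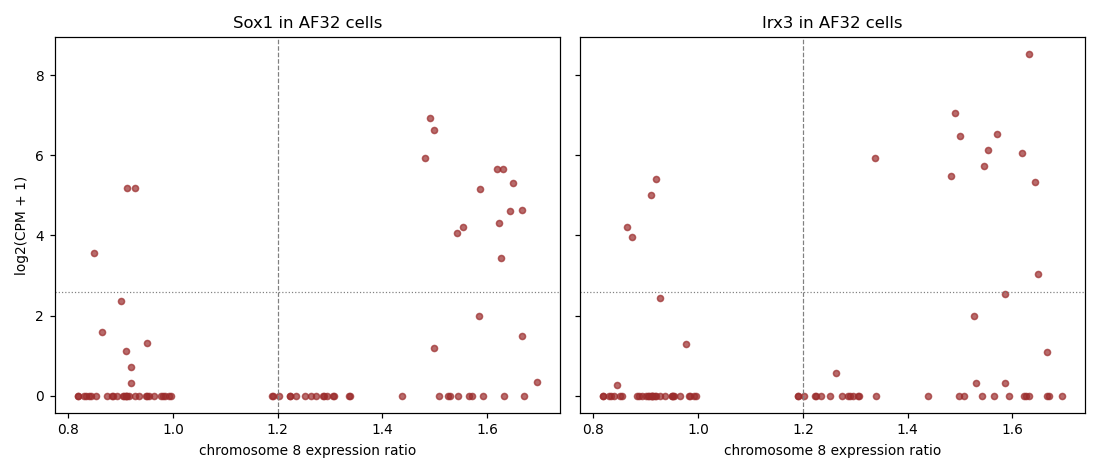
Sox1 and Irx3 as log2(CPM + 1) against the chromosome 8 expression ratio (no unit) in the 80 kept AF32 cells, with a dashed line at a ratio of 1.2 and a dotted line at 5 CPM. Cells lie in 3 ranges of the ratio, and 13 of the 16 Sox1 cells lie in the highest.

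Other genes of the neural plate were sought in the same cells. Of 16 *Sox1* cells of AF32, 8 had at least 5 CPM of *Irx3* (product of shares 3.00) and 8 had *Crabp2*, a retinoic acid binding protein (2.8), while none had *Foxa2*, a gene of endoderm and floor plate (2.6). *Sox1* and *Irx3* share chromosome 8 and were most frequent in the highest range of its ratio, in 13 and 10 of 27 cells. The product of shares over all cells of the line does not take this into account. In 5ar2, 5 of 12 *Six3* cells had *Lhx2*, an eye field and forebrain gene (0.800), and 3 had *Rax*, another eye field gene (1.333). *Hesx1* cells of 5ar2 had *Cdh2*, the cadherin of neural epithelium, in 35 of 38 (28.3). These genes were named after their values were seen. Of the neural plate genes with at least 5 cells at 5 CPM in the line, 7 of 8 were found with *Hesx1* and 6 of 8 with *Six3* in 5ar2 more often than the product of shares, and 4 of 7 with *Sox1* in AF32. Among the others, *Irx3* was in none of the *Six3* cells (0.800) and *Fabp7* in 1 (2.8), *Hes5* was in 1 *Hesx1* cell (2.956), and *Fabp7* was in 3 of the AF32 *Sox1* cells (4.00). Such an excess was not confined to neural plate genes. With *Hesx1* and *Six3* in 5ar2 it held for 6 of 9 and 5 of 9 neuronal differentiation genes, and for 0 of 3 and 1 of 3 fibroblast genes. Any excess was counted, however small. It also held for 6 of 6 pluripotency genes each. For *Pou5f1*, *Otx2*, *Fgf5* and *Utf1* this could hardly be otherwise, because 88 or 89 of the 90 cells had at least 5 CPM of them. *Sox2* and *Nanog* were in 30 and 31 *Hesx1* cells (27.4 each) and in 9 *Six3* cells each (8.67).

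Of 17 neural plate and progenitor genes with a row in the table, 14 were tested between FS cells and EpiSCs by edgeR and 0 passed, and of 15 tested by DESeq2 2 were called higher and 0 lower in EpiSCs. *Cdh2* had 43.4, 36.6, 13.5 and 38.4 CPM in 5ar1, 5ar2, AFX6 and AF32, and *Msi1*, an RNA-binding protein of neural progenitors, had 21.5, 20.3, 22.2 and 37.3 CPM. *Irx3* was low in 3 lines, with 0.720, 1.2 and 2.1 CPM, and had 13.3 CPM in AF32. Of 12 neuronal differentiation genes, edgeR called 0, while DESeq2 called 1 higher and 1 lower. *Tubb3* had 335, 130, 12.2 and 68.7 CPM in the same order of lines, and *Stmn2*, a neuronal tubulin-binding protein, 483, 307, 191 and 770 CPM.

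Lists of other lineages were read in the same way, and edgeR called 0 genes in each. DESeq2 called 0 of 7 neural crest genes, 1 of 4 surface ectoderm genes, 3 of 7 primitive streak and endoderm genes, 4 of 6 retinoic acid response genes, 2 of 6 pluripotency genes and 1 of 5 fibroblast genes. Among retinoic acid response genes *Dhrs3*, a retinaldehyde reductase, had 6.7 and 2.2 CPM in 5ar1 and 5ar2 and 39.4 and 28.9 CPM in AFX6 and AF32, whereas *Crabp2* had 47.6 and 36.1 CPM in 5ar1 and 5ar2 and 9.67 and 9.21 CPM in AFX6 and AF32. *Sox9*, in the crest list, had 105 CPM in AF32 and at most 17.2 CPM in the other lines.

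Genes with the most similar pattern over cells were ranked by Spearman's rho for members with at least 10 cells at 5 CPM in a line, as a description. In 5ar2 *Hesx1* was followed most closely by *Mest* (0.68), then by *Six3* and *Sox1*, out of 11901 genes. *Six3* was followed by *Hesx1*, *Mecom* (0.51) and *Nckap1l* (0.50). *Sox1*, averaged over 5ar2 and AF32, was followed by *Ckb* (0.43), *Cntfr* (0.42) and *Carnmt1* (0.36), none of them a member. *Nes*, averaged over 4 lines, was followed by *Cnn1* (0.41), *Pdlim7* (0.40) and *Tpm1* (0.39), which encode proteins of the actin cytoskeleton. *Sox3* had a rho of 0.44 with *Gfra2* in 5ar2, and the highest means over 4 lines were 0.24 for *Sox11* (*Ddhd2*) and *Ncam1* (*Calcoco1*).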

How the data were processed

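Smart-seq2 libraries of 384 single cells were analysed. The authors aligned reads with STAR 2.7.3a to GRCm38.p6 and deposited counts of uniquely mapped reads per gene from featureCounts 2.0.0, as well as sctransform corrected counts, a depth-corrected score that the authors deposited in whole numbers and that was used as an alternative. Smart-seq2 does not mark strand, and exons shared with any 1 other gene made up at most 4.81% of a member. Cells with at least 3000000 counts were kept. Exact Clopper-Pearson 95% intervals of shares cover only the sampling of cells within a line. Conditional intervals of folds cover only the counting of reads. Smart-seq2 carries no molecular identifiers, so these fold intervals treat all reads as independent. Neither kind covers the spread between lines.

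The line sums of counts entered the quasi-likelihood test of edgeR 4.0.16 under R 4.3.3, after filterByExpr and TMM scaling. DESeq2 1.42.0 and limma 3.58.1 were alternatives. The common dispersion that edgeR estimated here was 0.653. Whether edgeR can call changes as large as those of *Hesx1* and *Six3* at this dispersion was not tested. Chromosome ratios used genes that averaged 20 CPM or more, scaled to their mean, with values above 3 set to 3. Thinning and plots used Python 3.11.15 with numpy 2.4.6, pandas 2.3.3, scipy 1.17.1 and matplotlib 3.10.9. Promoters came from RefSeq (7 of 10 members matched), and lengths and positions from GENCODE. Named genes were all members, up to 4 genes of each list and the 3 most similar genes of each member. Genes shown beside single cells and the 3 ranges of chromosome 8 ratios were chosen after their values were seen. Members and lists were chosen with earlier results of these data known. Some genes of the lists were not analysed here. Nothing in the labels places cells of a line in separate cultures, and p-values measure only the spread between lines.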

Additional observations from a re-analysis of the deposited data

Results flagged for a closer look

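Cells under the count minimum were not used in the comparisons, and some held more of a member than any kept cell of their line. *Sox3* had 152 CPM in AFX6 cell 2 (260 counts of 1709048), where kept cells reached 84.0 CPM, and 223 CPM in AF32 cell 51 (282 counts of 1263188), where they reached 32 CPM. *Nes* had 1808 CPM in 5ar1 cell 39 and 976 CPM in AFX6 cell 68. *Sox11* had 198 CPM and *Ncam1* 435 CPM in 5ar2 cell 84, a cell that also had 9.01 CPM of *Sox1* and 12.8 CPM of *Six3*. *Sox11* had 585 CPM in AFX6 cell 21, and *Ncam1* had 171 CPM in AFX6 cell 96. No cell under the minimum exceeded the kept cells in *Sox1*, *Pax6*, *Six3* or *Zic1*. The shallowest cells give coarse values, as with *Hesx1* in 5ar1 cell 34, where 27.4 CPM rest on 2 counts.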

How the results depend on the processing

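Between FS cells and EpiSCs, DESeq2 called 3 members where edgeR called 0, and the other alternatives, including each line left out, called 0. Over the lines left out in turn, the log2 fold change (EpiSC minus FS) ranged from -2.86 to 2.106 for *Sox1*, -1.73 to 1.559 for *Pax6*, -0.018 to 1.115 for *Sox3*, -1.15 to 0.77 for *Ncam1* and -1.34 to 0.090 for *Sox11*, so these signs rest on single lines, whereas *Hesx1* (-15.66 to -8.47) and *Six3* (-12.73 to -9.83) kept theirs. *Ncam1* was -0.081 with cells thinned to 3000000 counts and -0.34 in limma. The share of AF32 cells with 5 CPM of *Sox1* was 7.69% without cells whose chromosome 8 was raised. Thresholds of 20 and 100 CPM in place of 50 gave 31.1% and 12.2% of 5ar2 cells with *Hesx1*, as lower and higher limits must. All 80 shares stayed within their intervals when cells were thinned to 3000000 or 1000000 counts or when cells with at least 2000000 counts were used, as did the 72 that the deposited normalized values allow, and 78 of 80 did with at least 4000000 counts. Leaving out cells with under 50 CPM of *Pou5f1*, added after seeing the data, kept 78 of 80. No paired analysis was possible because the number in a label names a cell and pairs nothing across lines. A dispersion of 0.653 over 2 lines against 2 limits what the test can call.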
